A study of Mus musculus with 12 samples.

Results

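The 10 germline genes Dazl, Ddx4, Mael, Sycp1, Sycp3, Tex101, Piwil1, Piwil2, Tdrd1 and Stk31 were followed in a list of sites of H3K27me3, the repressive trimethyl mark on histone H3 that Polycomb complexes deposit. They were chosen by name, with earlier results of these data known, as germline genes with CpG-rich promoters. Somatic cells usually keep such genes silent by DNA methylation, which was not examined here. The named genes make up 10 of 21755 protein-coding genes on chromosomes 1 to 19 and X. A site belonged to a gene if at least 1 bp of it lay in the gene body (GENCODE release M21, GRCm38) or in the 20 kb on either side, which together are called the window of the gene. Of 101389 listed sites, 63 met this rule.

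The cells were iMEF cells, an immortalized line of mouse embryo fibroblasts with floxed Ash2l alleles and a Cre-ER recombinase. Exon 4 of the endogenous Ash2l had been deleted in all of them, and a lentiviral construct supplied human ASH2L with an N-terminal FKBP12F36V tag. ASH2L is a core subunit of the complexes that methylate lysine 4 of histone H3, and the compound dTAG directs the tagged protein to degradation. By the study's own account the ChIP-seq was done in a single clone, NG3, which limits how far the cells stand for fibroblasts in general. H3K27me3 chromatin immunoprecipitation and sequencing (ChIP-seq) was done without dTAG and after 16, 24 and 48 h of dTAG, in 2 libraries per condition (8 in all). Input DNA was sequenced in 4 libraries, 2 without dTAG and 2 after 48 h. The list used here is pooled over all samples and gives the position of each site without a value for any library. From this list no site could be compared between treated and untreated cells, no replicate error could be given, and the depth behind a site is unknown. The study also describes a list of sites that changed at each time point, which was not used here. All values below are counts, distances and covered bases in that list, and the main ones are set beside the same values over all protein-coding genes.

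Germline genes are needed for the formation of sperm and eggs and are switched off in body cells. Many of them have a promoter of intermediate to high CpG density that is methylated on DNA in somatic tissues, unlike most CpG islands. A variant Polycomb complex, PRC1.6, also represses germline genes, and its subunits MGA and MAX bind the E-box CACGTG, whereas its subunit E2F6 binds the E2F element GCGGGA. DNA methylation and H3K27me3 tend to occupy different CpG-dense regions.

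Promoters were taken from RefSeq on GRCm38.p6, where 9 of the 10 genes had an entry and Piwil2 had none. In the windows from 250 bp before to 50 bp after a RefSeq start, CACGTG was present for 7 of 9 genes (Mael, Sycp1, Piwil1, Stk31, Sycp3, Ddx4 and Tdrd1). The same letters were present for 8.16% of all 26794 genes in that collection, and for 13.6% of the 6556 genes with a CpG-rich window (GC of 55% or more, observed/expected CpG ratio of 0.75 or more). CACGTG reads the same on both strands. The E2F element, searched as GCGGGA and TCCCGC to cover both strands, was present for 4 of 9 genes (Mael, Sycp1, Sycp3 and Ddx4), against 22.2% of all genes and 52.5% of those with a CpG-rich window. The E-box and the E2F element can share at most 1 end letter, and shared none in these genes. Both motifs were chosen after the sequences had been seen, and a match shows only that the letters are present. The 250 bases before the start are given for 5 promoters and 1 alternative start that the results turn on, 5′ to 3′ on the strand of the gene, with both motifs in capitals.

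Ddx4, chr13:112652311-112652560, reverse strand, high CpG density with 1 E-box and 1 E2F element: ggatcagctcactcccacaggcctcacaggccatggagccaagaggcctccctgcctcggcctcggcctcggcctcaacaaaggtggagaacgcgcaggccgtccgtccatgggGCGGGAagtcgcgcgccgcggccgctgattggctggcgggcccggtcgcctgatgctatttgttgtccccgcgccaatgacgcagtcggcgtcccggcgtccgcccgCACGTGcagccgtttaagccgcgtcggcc

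Sycp3, chr10:88459337-88459586, forward strand, 2 E-boxes and 1 E2F element: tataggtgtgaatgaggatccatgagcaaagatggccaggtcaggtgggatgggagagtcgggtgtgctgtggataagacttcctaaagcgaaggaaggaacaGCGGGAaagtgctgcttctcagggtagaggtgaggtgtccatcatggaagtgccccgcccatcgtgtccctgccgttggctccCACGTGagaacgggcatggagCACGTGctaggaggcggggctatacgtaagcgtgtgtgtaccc

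Dazl, chr17:50293621-50293870, reverse strand, CpG-rich with neither motif: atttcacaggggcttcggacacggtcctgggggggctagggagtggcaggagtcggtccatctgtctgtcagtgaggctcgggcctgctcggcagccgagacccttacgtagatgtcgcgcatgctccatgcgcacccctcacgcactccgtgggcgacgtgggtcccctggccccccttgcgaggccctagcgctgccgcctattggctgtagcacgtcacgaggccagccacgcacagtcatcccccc

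Tex101, chr7:24672051-24672300, reverse strand, the promoter that lay inside an H3K27me3 site: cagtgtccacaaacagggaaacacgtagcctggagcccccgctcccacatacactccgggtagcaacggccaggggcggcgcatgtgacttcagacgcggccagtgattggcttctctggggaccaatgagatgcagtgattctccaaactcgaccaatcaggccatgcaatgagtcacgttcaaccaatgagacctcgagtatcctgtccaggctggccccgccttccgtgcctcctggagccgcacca

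Tdrd1, chr19:56825959-56826208, forward strand, the CpG-rich promoter without a site: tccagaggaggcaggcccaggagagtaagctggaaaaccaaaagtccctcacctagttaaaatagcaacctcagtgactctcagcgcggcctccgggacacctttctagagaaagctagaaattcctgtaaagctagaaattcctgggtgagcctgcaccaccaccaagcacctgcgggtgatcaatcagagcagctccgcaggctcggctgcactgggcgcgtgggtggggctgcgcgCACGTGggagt

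Tdrd1, chr19:56830462-56830711, forward strand, the CpG-poor alternative start inside a site: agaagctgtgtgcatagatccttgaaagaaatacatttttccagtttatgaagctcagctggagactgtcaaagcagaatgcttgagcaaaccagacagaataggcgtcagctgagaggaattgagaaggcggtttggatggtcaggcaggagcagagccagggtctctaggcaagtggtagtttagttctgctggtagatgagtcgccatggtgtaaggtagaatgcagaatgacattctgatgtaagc

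These stretches held 31 CpGs in Ddx4, 12 in Sycp3, 20 in Dazl, 14 in Tex101 and 11 in Tdrd1, against 3 before the alternative start of Tdrd1. The E-boxes of Sycp3 began 64 and 43 bp before its RefSeq start, that of Ddx4 29 bp before and that of Tdrd1 11 bp before. In Piwil1, which carries the other pair of E-boxes, they began 179 and 154 bp before the start.

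The CpG content of the promoters was then checked against the name of the group. A transcription start site (TSS) was called high in CpG if a 500 bp stretch between 700 bp before and 500 bp after it reached a GC content of 55% and an observed/expected CpG ratio of 0.75. It was called low if no stretch reached a ratio of 0.48, and intermediate otherwise. At the start of the longest protein-coding transcript, 5 genes were high, 3 intermediate and 2 low (Tex101 and Tdrd1, which then counted by a CpG-poor start). At the start with the most CpG-dense stretch, a choice made after seeing the data, 6 genes were high (Dazl, Ddx4, Sycp1, Stk31, Mael and Tdrd1), 4 were intermediate (Sycp3, Piwil1, Tex101 and Piwil2) and 0 were low. Of all protein-coding genes, 51.8% were high, 18.9% intermediate and 29.3% low. The highest ratio was 0.983 in Dazl, followed by 0.935 in both Ddx4 and Sycp1. The lowest were 0.628 in Tex101 and 0.585 in Piwil2. The strict class therefore held for 5 or 6 of the 10 genes, depending on the start used.

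**Figure D1:**
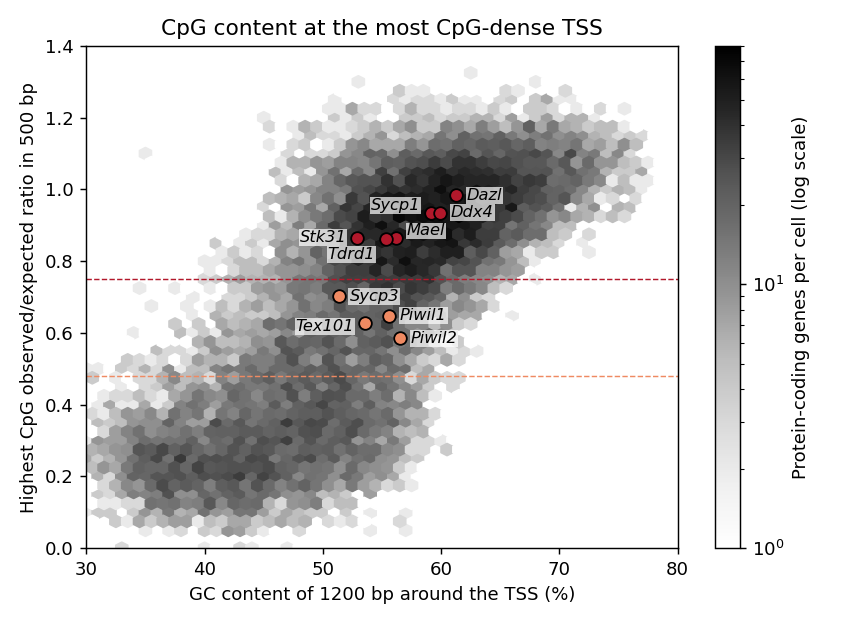
Highest CpG observed/expected ratio in a 500 bp stretch (y axis) against the GC content around the most CpG-dense TSS (x axis, %). Grey cells count all protein-coding genes on a log scale, red points are the 6 high genes and orange points the 4 intermediate genes, and dashed lines mark the ratios 0.75 and 0.48. All 10 genes lie above the lower line, between 0.585 and 0.983.

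H3K27me3 sites were listed at the promoters of few of these genes, as for most protein-coding genes. A promoter site was a site with at least 1 bp within 1 kb of any annotated TSS of the gene. Such a site was listed for Tex101 and Tdrd1, which is 2 of 10 genes (20%, 95% Wilson interval 5.67% to 51.0%). Of all protein-coding genes 26.9% had one. By the class of the most CpG-dense start, the share was 24.4% of high, 35.8% of intermediate and 25.5% of low genes. The count in the germline genes is thus near this background, and a difference from it was not tested. When only the most CpG-dense start of each gene was used, 1 of 10 genes (Tex101) had a site within 1 kb, against 23.7% of all genes. The count in the germline genes was 0 at the 5-prime end of the gene alone and 4 with a promoter window of 5 kb. The 10 genes have 30 annotated starts, several of which share a promoter. A site lay within 1 kb of 2 of these starts, 1 intermediate (Tex101) and 1 low in CpG (Tdrd1).

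Seen over the whole window, 6 of 10 genes had at least 1 site (Mael, Tdrd1, Tex101, Dazl, Ddx4 and Piwil2), against 61.5% of all protein-coding genes. A site lay in the gene body itself of 5 of 10 genes, against 30.6% of all. These shares were not adjusted for gene length, which ran from 8669 bp in Tex101 to 117602 bp in Sycp1. Mael had 23 sites in its window, Tdrd1 14, Tex101 11, Dazl 10, Ddx4 3 and Piwil2 2, so that the first 4 genes held 58 of the 63 sites. Sycp1, Piwil1, Stk31 and Sycp3 had 0. The median was 2.5 sites per window in the 10 genes and 2 over all protein-coding genes, whose upper quartile was 5. The windows together span 873 kb, of which 11.5% was covered by sites, compared with 8.63% over the windows of all protein-coding genes. The share of the germline genes depended on the extension, as it was 5.00% in the gene bodies alone and 6.94% with 5 kb on both sides, and the shares of all genes at these extensions were not computed. The median covered share per gene was 1.19%, against 1.88% over all genes, since the coverage was uneven. It was 53.3% in Tex101, 38.0% in Tdrd1, 30.7% in Mael and 30.0% in Dazl, but 1.44% in Ddx4, 0.936% in Piwil2 and 0% in the other four. For comparison, the upper quartile over all protein-coding genes was 13.95%. The genes thus fell into a group of 4 with coverage above this quartile and a group of 6 below it.

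**Figure D2:**
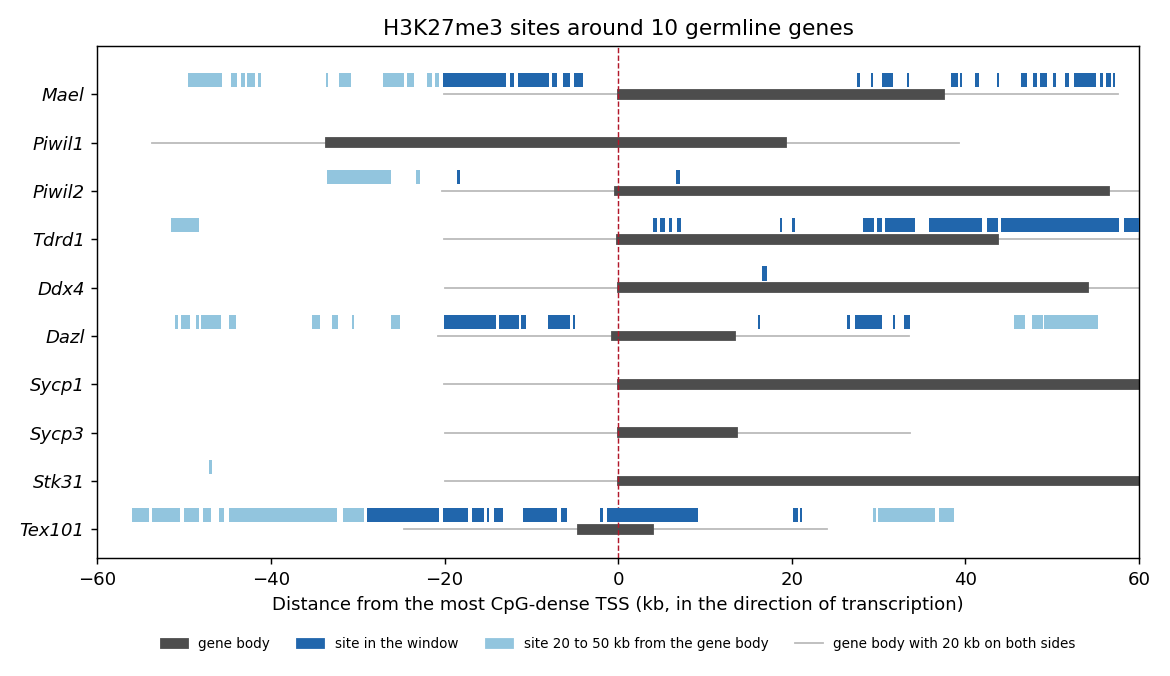
H3K27me3 sites around the 10 genes, with the distance from the most CpG-dense TSS on the x axis (kb, in the direction of transcription, shown to 60 kb on both sides). Dark grey bars are gene bodies, thin grey lines the windows, dark blue boxes sites in the window and light blue boxes sites 20 to 50 kb from the gene body, and the dashed line is the TSS. Only in Tex101 does a site cross the dashed line, whereas in Mael, Dazl and Tdrd1 sites stand on 1 or both sides of it at a distance of 4045 to 5014 bp or more.

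Of the 10 genes, Mael, Piwil1, Piwil2 and Tdrd1 act in the piRNA pathway, in which small RNAs bound by Piwi proteins silence transposons in germ cells. The covered share of their windows lay between 0% in Piwil1 and 38.0% in Tdrd1. Mael encodes maelstrom, a factor in transposon silencing, and lies at chr1:166201201-166238747 on the reverse strand. Its CpG-rich start was free of sites over 31.6 kb. The nearest site (chr1:166242805-166243827, 1023 bp) was 4061 bp upstream in an intergenic position, and the nearest on the other side was 27567 bp downstream. The 20 kb upstream of the gene had 6 sites that covered 67.5% of the bases, and the 20 kb downstream had 13 sites that covered 41.5%. In the gene body there were 4 sites, all intronic, which covered 5.26%. The widest of the 23 sites, 7318 bp at chr1:166251652-166258969, lay over a TSS of the neighbouring gene Ildr2. Mael thus stood between covered flanks with a promoter that no listed site reached.

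Piwil1 and Piwil2 encode MIWI and MILI, the Piwi proteins that bind piRNAs in the male germline. Piwil1 (chr5:128702524-128755474, forward strand) had 0 sites in its window, and its intermediate start at 128736174 lay in a site-free stretch of 321 kb. The nearest site to any of its 3 starts was 99038 bp away, a distance shorter in 82.5% of all protein-coding genes. Piwil2 (chr14:70372477-70429383, reverse strand) had a site of 519 bp (chr14:70421895-70422413) 6651 bp downstream of its most CpG-dense start. This site was intronic and overlapped the small nucleolar RNA gene Gm22725. The second site in its window, 388 bp at chr14:70447269-70447656, was intergenic, and 78.1% of its bases were masked as repeats. Both Piwil2 sites were low in CpG, with a highest observed/expected ratio of 0.0809.

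Tdrd1 encodes a Tudor-domain protein that binds methylated arginines of Piwi proteins. It lies at chr19:56826209-56870012 on the forward strand and was the gene with the most sites in its body, 12 of 14. Of its 4 annotated starts, the 3 high in CpG (56826209 to 56826286) were 4045 to 4122 bp from the nearest site. The fourth, at 56830712 and low in CpG (highest ratio 0.347), lay inside a site of 391 bp (chr19:56830331-56830721). A second site of 611 bp (chr19:56831084-56831694) was 372 bp downstream of it. Sites covered 34.0% of the gene body and 84.6% of the 20 kb downstream, but 0% of the 20 kb upstream. Of the 14 sites, 8 touched an exon of Tdrd1. The widest, 13604 bp at chr19:56870412-56884015, began 400 bp after the end of the gene and lay over a TSS of Vwa2, which encodes an extracellular matrix protein. Coverage in Tdrd1 was therefore highest at the end away from the CpG-rich promoter, next to Vwa2.

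Ddx4 and Dazl encode RNA-binding proteins of germ cells, the helicase Vasa and a translational regulator. Ddx4 (chr13:112598333-112652475, reverse strand) had 3 narrow sites of 381, 399 and 577 bp. The nearest was an intronic site (chr13:112635324-112635900) 16575 bp downstream of its most CpG-dense start. The other 2 lay downstream of the gene within Il31ra, the gene of a cytokine receptor subunit. No site was listed over 324239 bp upstream of this start, and the site-free stretch of 341 kb was the longest among the 10 genes. Dazl (chr17:50279395-50293636, reverse strand) had 0 sites in its gene body and 5 on each side. These covered 58.5% of the 20 kb upstream and 22.9% of the 20 kb downstream. Its most CpG-dense start at 50292892 had a site 5014 bp upstream (chr17:50297906-50298126, 221 bp) and another 16102 bp downstream, which leaves a site-free stretch of 21.1 kb with the whole gene in it. None of the 10 sites touched a gene body. As for Mael, the CpG-rich promoter of Dazl lay in a gap between covered flanks. Both site-free stretches were shorter than the median over all protein-coding genes, 117765 bp. Only 23.7% of all genes had a site within 1 kb of this start, and genes with such a gap were not counted.

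Sycp1 and Sycp3 encode structural proteins of the synaptonemal complex, which joins homologous chromosomes in meiosis. Neither had a site in its window. Sycp1 (chr3:102818499-102936100, reverse strand) had the nearest site 145099 bp from its most CpG-dense start, in a site-free stretch of 298 kb. A short non-coding transcript with a start near the other end of the gene was 42892 bp from that site. In Sycp3 (chr10:88459569-88473236, forward strand) the nearest site was 84599 bp away and had the smallest width in the list, 200 bp. Its site-free stretch was 223 kb. Both meiotic genes were therefore far from any listed site.

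Stk31, a gene of the male germline that encodes a protein with a Tudor and a kinase domain, also had no site in its window. It spans chr6:49395604-49469501 on the forward strand. Its nearest site (chr6:49348436-49348839, 404 bp) was 46765 bp upstream of its CpG-rich start, and the site-free stretch was 156 kb. Tex101, the gene of a glycoprotein on the surface of germ cells, had a site over its most CpG-dense start. It lies at chr7:24668007-24676675 on the reverse strand. A site of 10462 bp (chr7:24662877-24673338) spanned its intermediate start at 24672050, overlapped an exon of the gene and ran past its end. It also overlapped the annotated non-coding loci Gm4598 and 2200007N16Rik. All bases within 1 kb of this start were covered, and 65.6% of the gene body. Its other start at 24676675, low in CpG, was 1295 bp from the nearest site. The 20 kb upstream were covered to 71.4% and the 20 kb downstream to 29.9%.

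The coverage was then read in rings around the most CpG-dense start. Within 1 kb it was 100% in Tex101 and 0% in the other 9 genes. Of all protein-coding genes, only 23.7% had any site in this ring, with a mean coverage of 17.7% over all of them. Between 1 and 5 kb it was 58.0% in Tex101, 11.8% in Mael, 7.43% in Tdrd1 and 0% in the other seven, against 14.02%. Between 5 and 20 kb it was 41.9% in Mael and 39.6% in Dazl, with 47.4% in Tex101, 4.68% in Tdrd1, 3.02% in Piwil2 and 1.92% in Ddx4, against 11.5%. Between 20 and 50 kb it was 59.7% in Tex101, 34.4% in Tdrd1, 30.2% in Mael, 25.4% in Dazl and 13.3% in Piwil2, against a mean of 11.4%, so that Piwil2 also lay above the mean in this ring. Between 50 and 100 kb Tdrd1 reached 59.7%, Mael 51.3%, Tex101 41.2% and Dazl 24.9%, and the remaining 6 genes lay between 0% and 2.96%, against a mean of 11.7%. From the innermost to the outermost ring the mean over the 10 genes was 10%, 7.72%, 13.9%, 16.4% and 18.4%, and that over all protein-coding genes 17.7%, 14.02%, 11.5%, 11.4% and 11.7%. The first value of the 10 genes rests on Tex101 alone, and the difference between both series was not tested.

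**Figure D3:**
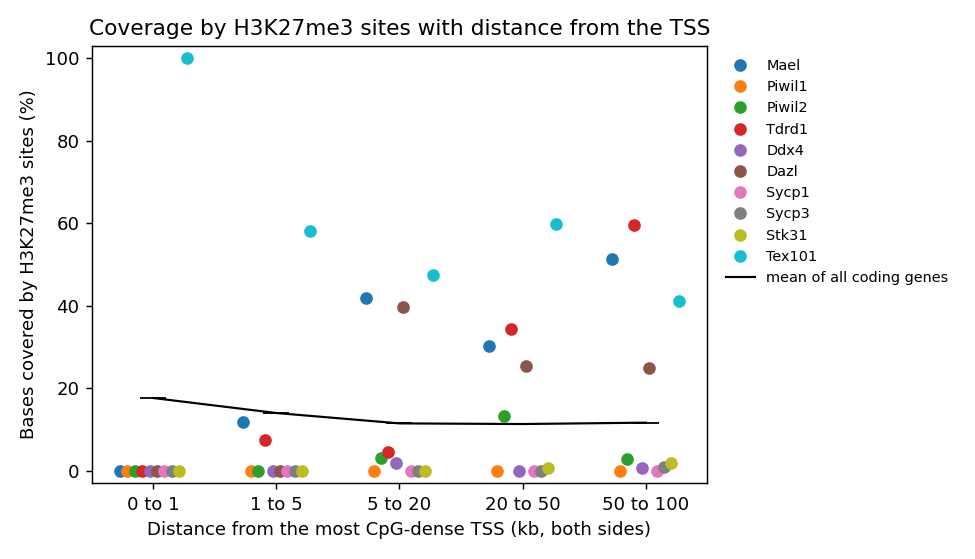
Share of bases covered by H3K27me3 sites (y axis, %) in rings of increasing distance from the most CpG-dense TSS (x axis, kb on both sides). Each coloured point is 1 of the 10 genes and the black line is the mean of all protein-coding genes. Within 1 kb, 9 genes are at 0% and Tex101 is at 100%, whereas at 50 to 100 kb Tdrd1, Mael, Tex101 and Dazl are between 24.9% and 59.7%.

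Distances from any annotated start to the nearest site had a median of 11526 bp over the 10 genes, with quartiles of 4111 and 45797 bp. Over all protein-coding genes the median was 13192 bp and the quartiles 568 and 58724 bp. From the most CpG-dense start the medians were 11613 and 16445 bp. The site-free stretch around that start had a median of 104282 bp in the germline genes and 117765 bp over all genes. These medians, with sites of every width counted, differed little from those of all genes. With only sites of at least 1000 bp, the median of 11526 bp rose to 51813 bp. The median of all genes at that width is not given here. Of the sites, the last inside the limit of 20 kb lay 19500 bp from Mael (248 bp wide) and the first outside it 20582 bp from the same gene (565 bp wide). A further 55 sites lay between 20 and 50 kb from the gene bodies.

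The 63 sites themselves were like the list as a whole. Their median width was 577 bp, against 677 bp for all sites on chromosomes, and 39.7% were under 500 bp wide, against 38.5%. At least 5000 bp were spanned by 6 of them (9.52%, against 7.08%). The median GC content was 48.6%, against 47.7%, and the median CpG observed/expected ratio 0.206, against 0.182. The highest ratio in any of the 63 sites was 0.518, taken over the whole site. Of the sites, 20 lay in or across the bodies of the germline genes, 19 upstream and 24 downstream, and 3 were within 1 kb of a TSS of another protein-coding gene (Ildr2, Il31ra and Vwa2).

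Other germline genes were taken from lists by role. Of 16 further piRNA pathway genes, 8 had a promoter site (50%), against 26.9% of all protein-coding genes. Within 1 kb of the most CpG-dense start 6 of 16 had a site (37.5%), without Mov10l1 and Tdrd12, against 23.7% of all genes. The 8 included Tdrd5 and Tdrd6, which encode Tudor-domain proteins and lay under sites of 8638 and 4849 bp. Fkbp6, which encodes an immunophilin of the pathway, lay under a site of 5524 bp. Tdrd9, the gene of a helicase of the pathway, had a site of 11097 bp and Tdrd12 1 of 8500 bp. The sites were 967 bp wide at Mov10l1, 1519 bp at Piwil4 and 1167 bp at Tdrkh. Of 22 meiotic chromosome genes, 5 had a promoter site (22.7%). Within 1 kb of the most CpG-dense start 3 had a site (13.6%), without Smc1b and Stag3. Spo11, which encodes the enzyme that makes meiotic double-strand breaks, had a site of 10379 bp, and Meiob, the gene of a single-strand DNA-binding protein, lay under a site of 21945 bp. The sites at Smc1b (276 bp), Stag3 (737 bp) and Tex15 (1352 bp) were narrower. The median distance was 1924.5 bp in the piRNA list and 12304 bp in the meiotic list.

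Of 21 regulators of germ cell identity, 13 had a promoter site (61.9%). Within 1 kb of the most CpG-dense start 11 had a site (52.4%), without Kit and Brdt. Sall4, Prdm14, Tfap2c, Lin28a and Prdm1, which act in primordial germ cells or their precursors, had sites of 18082, 9677, 12324, 11723 and 4115 bp. Dmrt1, Nanos2 and Nanos3 had sites of 7976, 6973 and 2887 bp, and Zbtb16, which is also active outside germ cells, lay under a site of 93448 bp. The others were Kit (13196 bp), Figla (4165 bp), Sohlh1 (2921 bp) and Brdt (2492 bp). Among 14 developmental transcription factor genes chosen as Polycomb targets, 13 had a promoter site (92.9%), and their median window coverage was 65.8%. The widest lay over Pax2 (114741 bp) and the narrowest over Sox17 (8032 bp), with Pax3, Pax6, Pax7, Olig2, Lhx2, Nkx2-2, Nkx2-5, Gata4, Neurog2, Tbx5 and Sox1 in between. Of 12 genes chosen as fibroblast markers, 1 (Pdgfra, with a site of 810 bp) had a promoter site, against 26.9% of all protein-coding genes. At the most CpG-dense start 0 of 12 had a site within 1 kb, against 23.7% of all genes. Their expression was not examined, and most genes lack a site, so that this count does not check the cell type. The share of genes with a promoter site was 8.33% in the fibroblast list and 20% in the 10 germline genes. It was 50%, 22.7% and 61.9% in the piRNA, meiotic and regulator lists. The 92.9% of the Polycomb list belongs to genes that were picked as Polycomb targets. The lists were chosen with earlier results known, so that the differences between them were not tested.

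**Figure D4:**
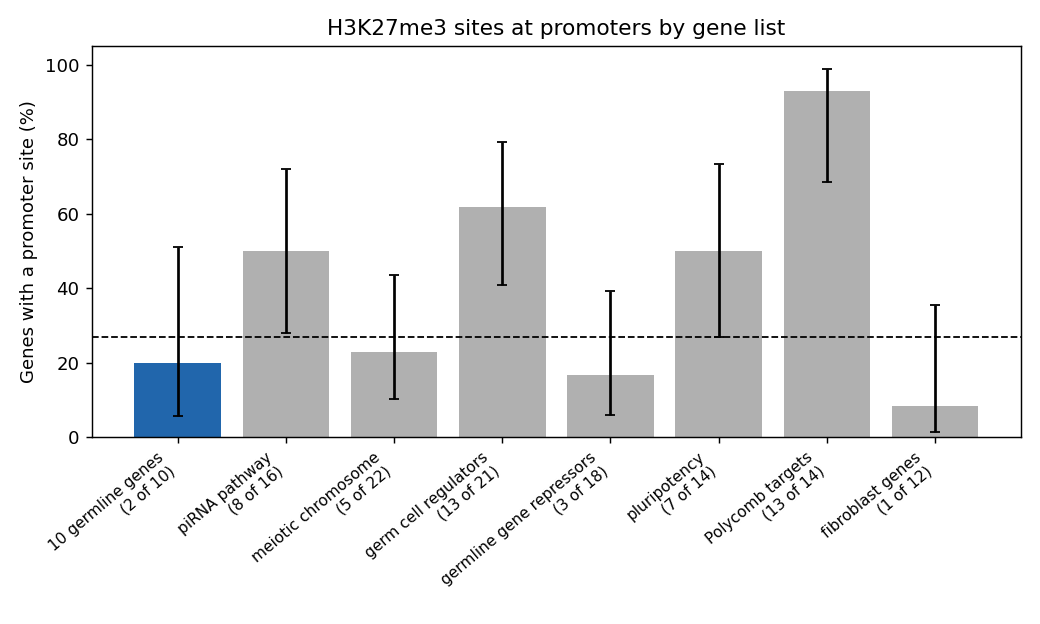
Share of genes with an H3K27me3 site within 1 kb of a TSS (y axis, %) in the 10 germline genes (blue) and 7 other gene lists (grey). Error bars are 95% Wilson intervals, which treat genes as independent, and the dashed line is the 26.9% of all protein-coding genes. The germline genes (20%) lie below the line and the Polycomb targets (92.9%) are highest.

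The sequence of the windows was examined where it could hinder the alignment of reads. Masked repeats made up between 15.6% (Tdrd1) and 57.6% (Sycp1) of the window bases. Among the 4 genes without a site they made up 57.6% in Sycp1, 42.0% in Stk31, 29.8% in Sycp3 and 27.6% in Piwil1, and among the 6 genes with a site between 15.6% in Tdrd1 and 39.1% in Piwil2, so that both ranges overlapped. Outside repeats, at most 0.0791% of the sampled 31-base words of a window recurred on a patch scaffold of the same strain, in Tex101, and 0% in the other 9 genes. On any of the 217 scaffolds outside the chromosomes the share was 0.4% in Dazl, 0.158% in Tex101, 0.0846% in Sycp1, 0.0807% in Stk31 and 0% in the other 6 genes. Within the 63 sites the median masked share was 17.6%, against 15.1% for all sites. It reached 98% in a Mael site of 250 bp in the gene body and 98.5% in another Mael site of 263 bp downstream. The part of repeats in the presence or lack of sites was not tested.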

How the data were processed

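Genome positions (in bp, not read counts) of H3K27me3 sites were used as deposited, in 1 list over all samples. According to the methods of the study and the submitters' processing notes, the authors aligned reads to mm10 with BWA, processed them with SAMtools, merged replicates with Picard and called broad peaks with MACS2. Versions, cutoffs and the way in which samples were joined are not given in the sources used here. A broad caller joins neighbouring stretches, which sets the number and width of sites. The number of unused columns with values of single samples was 0.

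Starts were read as counted from 0, because the smallest width was then 200 bp, and are printed counted from 1. Sites, genes and start sites (GENCODE M21) were compared with Python 3.11.15, numpy 2.4.6 and pandas 2.3.3. Interval functions were checked on simulated sites. CpG content was read from GRCm38.p6 in stretches of 500 bp moved by 5 bp, and 31-base words outside repeats, taken every 20 bp, were looked up in 217 scaffolds. Wilson intervals came from statsmodels 0.14.6 and cover counting only.

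The text names all 10 genes, genes of the other lists with a promoter site, and neighbours under a site in a window. The members and lists were chosen with earlier results of these data known. No test was run, since the list holds no value per library. Alternatives covered the width and merging of sites, the windows, the start sites and the definition of a CpG-rich promoter.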

Additional observations from a re-analysis of the deposited data

How the results depend on the processing

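No paired analysis was possible because the list carries no replicate number or value per library, and for the same reason no replicate could be left out. The number of germline genes with a promoter site, 2 as reported, was 1 for sites of at least 1000 bp, 1 when the centre of the site had to lie in the promoter window, 0 at the 5-prime end of the gene, 1 at the most CpG-dense TSS (chosen after seeing the data) and 4 with a promoter window of 5 kb. It was 2 in the remaining 6 alternatives. Tdrd1 was lost with sites of at least 1000 bp because its site was narrower. The number of genes with a site in the window stayed within 1.5 times the reported 6 in all alternatives, between 4 and 8. The 63 sites became 38 and 21 for sites of at least 500 and 1000 bp, 28 and 17 with sites less than 1000 and 3000 bp apart merged, and 20, 30, 38 and 118 with the gene body extended by 0, 5, 10 and 50 kb, as these settings remove, join or add sites by construction. The covered share of the windows, 11.5%, was 5.00% with an extension of 0 kb and 6.94% with 5 kb. The median distance from a TSS, 11526 bp, rose to 51813 bp for sites of at least 1000 bp. Of 70 distances of single genes recomputed under 7 settings, 56 stayed within 1.5 times the reported value. The number of genes with a CpG-rich promoter, 5 at the longest transcript, was 8 by a CpG island within 1 kb and 8 with intermediate promoters included. The lack of depth and of library values limits every statement to the presence of a site in the pooled list.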

Other observations

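Among 18 genes whose products repress germline genes, all 18 had a start high in CpG. A promoter site was listed for 3 of them (16.7%), against 26.9% of all protein-coding genes and 24.4% of those high in CpG. These were Dnmt3a and Dnmt3b, the genes of the de novo DNA methyltransferases, with sites of 3847 and 408 bp at 909 and 332 bp from a TSS, and Setdb1, the gene of an H3K9 methyltransferase, with a site of 305 bp. The maintenance factors Dnmt1 and Uhrf1 had their nearest sites at 21448 and 4051 bp. Of the genes of PRC1.6, E2f6 had its nearest site at 2920 bp, Pcgf6 at 3783 bp, L3mbtl2 at 5005 bp, Max at 7189 bp, Mga at 23309 bp, Tfdp1 at 4136 bp, Ring1 at 11322 bp and Rnf2 at 25988 bp (the last 10 genes were picked after their values were seen).

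Of 14 pluripotency genes, 7 had a promoter site (50%), against 26.9% of all protein-coding genes. The 7 included Sox2 under a site of 22462 bp, Fgf4 under 60096 bp, Utf1 under 39286 bp, Esrrb under 25335 bp and Tfcp2l1 under 4582 bp. Tdgf1 had a site of 1577 bp and Pou5f1 1 of 309 bp. In the RefSeq promoter windows, CACGTG was present for 4 of 13 further piRNA pathway genes, 4 of 16 meiotic chromosome genes, 3 of 13 regulators of germ cell identity, 4 of 18 repressors of germline genes, 1 of 11 pluripotency genes, 1 of 9 Polycomb targets and 0 of 7 fibroblast genes. The E2F element was present for 2 of 13, 10 of 16, 2 of 13, 9 of 18, 3 of 11, 6 of 9 and 0 of 7 genes of these lists in the same order. In the 10 germline genes of the report, the E-box was present for 7 of 9 and the E2F element for 4 of 9. The E-box was present for 8.16% of all genes and the E2F element for 22.2%. Among genes with a CpG-rich window the shares were 13.6% and 52.5%. Both motifs were chosen after these sequences had been seen and the lists were not tested against each other, so that no rank is drawn from either.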
